A study of Mus musculus with 12 samples.

Results

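Regions of STAT5 binding around 8 fibroblast matrix and cytoskeleton genes were followed in mouse embryonic fibroblasts: Col1a1, Col1a2, Col3a1, Col5a2, Fn1, Lox, Vim and Acta2. The genes lie in 7 windows of the mouse genome (build mm9, all windows given below), since Col3a1 and Col5a2 share one, and a region counted as a member when its centre lay inside a window. The windows span 1040 kb in all, and of 156642 regions in the 3 lists examined, 259 belonged to them: 23 of 13278 in wild-type cells, 132 of 71561 in replicate 1 and 104 of 71803 in replicate 2 of STAT5A-overexpressing cells. A member is thus a called stretch of bound chromatin near one of these genes, and not a measure of how much the gene is expressed.

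Chromatin immunoprecipitation and sequencing (ChIP-seq) with an antibody to STAT5 was done on fibroblasts grown from fetuses of day 12.5 to 13.5, on a C57BL/6 background, at passage 9 to 10. Of the 12 libraries of the series, the 3 whose region lists are used here were made after 5 h without serum and 45 min with growth hormone at 1 µg/ml. Wild-type cells carried their own Stat5 genes (1 library). Overexpressing cells lacked Stat5 (Stat5-/-) and carried STAT5A instead (2 libraries, the second titled as a repeat), so they differed from wild type both in how much STAT5A they had and in what they lacked. How STAT5A was introduced, and whether the repeat came from a separate culture, is not stated in the labels, and the spread between the replicates may be technical. The labels tie the replicate 2 list to both the unstimulated and the stimulated repeat library, with no IgG library named for it, and it was taken as stimulated from its track name. The other lists are tied to a STAT5 library and an IgG library each. Region lists of unstimulated, Stat5-null and IgG libraries were not analysed here, so no background from cells without STAT5 stands beside the values below. The lists give positions and, except for replicate 2, a summit (the point of highest signal), but no height, score or read depth. With 1 wild-type library no test between genotypes is possible, and none is given.

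STAT5A and STAT5B are transcription factors that wait in the cytoplasm. When growth hormone binds its receptor, the kinase JAK2 phosphorylates them, they pair, enter the nucleus and bind DNA, often at the palindrome TTCNNNGAA. Fibroblasts are the cells that build connective tissue. They secrete fibrillar collagens and fibronectin, crosslink them outside the cell, and pull on them with a contractile cytoskeleton. No expression was measured in these files, so the fibroblast label could not be checked against marker levels.

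All 7 windows held regions in every list. In wild type the windows held 1 region each around Col1a1, Lox and Vim, 2 around Col1a2, 3 around Acta2, 7 around Col3a1-Col5a2 and 8 around Fn1. The overexpressing cells had between 13 and 27 regions per window in replicate 1 and between 9 and 22 in replicate 2, so every window had more regions in each overexpression library than in wild type. That order depends on the length of the lists. With the overexpression lists reduced to their 13278 broadest regions, Fn1 had 2 and 5 regions against 8 in wild type and Col3a1-Col5a2 had 6 and 5 against 7, while Vim had 1 and 4 against 1 and the remaining windows still had more than wild type in both libraries. Over the full lists, the overexpression libraries had 118 ± 19.8 regions in the windows (SD, n = 2), which is 5.13 times the wild-type number, where the whole lists differ by 5.40 times. The 7 windows took these shares of the full lists: 0.173% of wild-type regions (95% exact binomial interval 0.110 to 0.260%), 0.184% in replicate 1 (0.154 to 0.219%) and 0.145% in replicate 2 (0.118 to 0.175%). These intervals overlap and cover counting error only. Among the 13278 broadest regions the overexpression shares were higher, 0.226% (0.152 to 0.322%) in replicate 1 and 0.271% (0.190 to 0.375%) in replicate 2, and both intervals still overlap that of wild type. The windows themselves make up 0.0394% of the chromosomes.

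**Figure D1:**
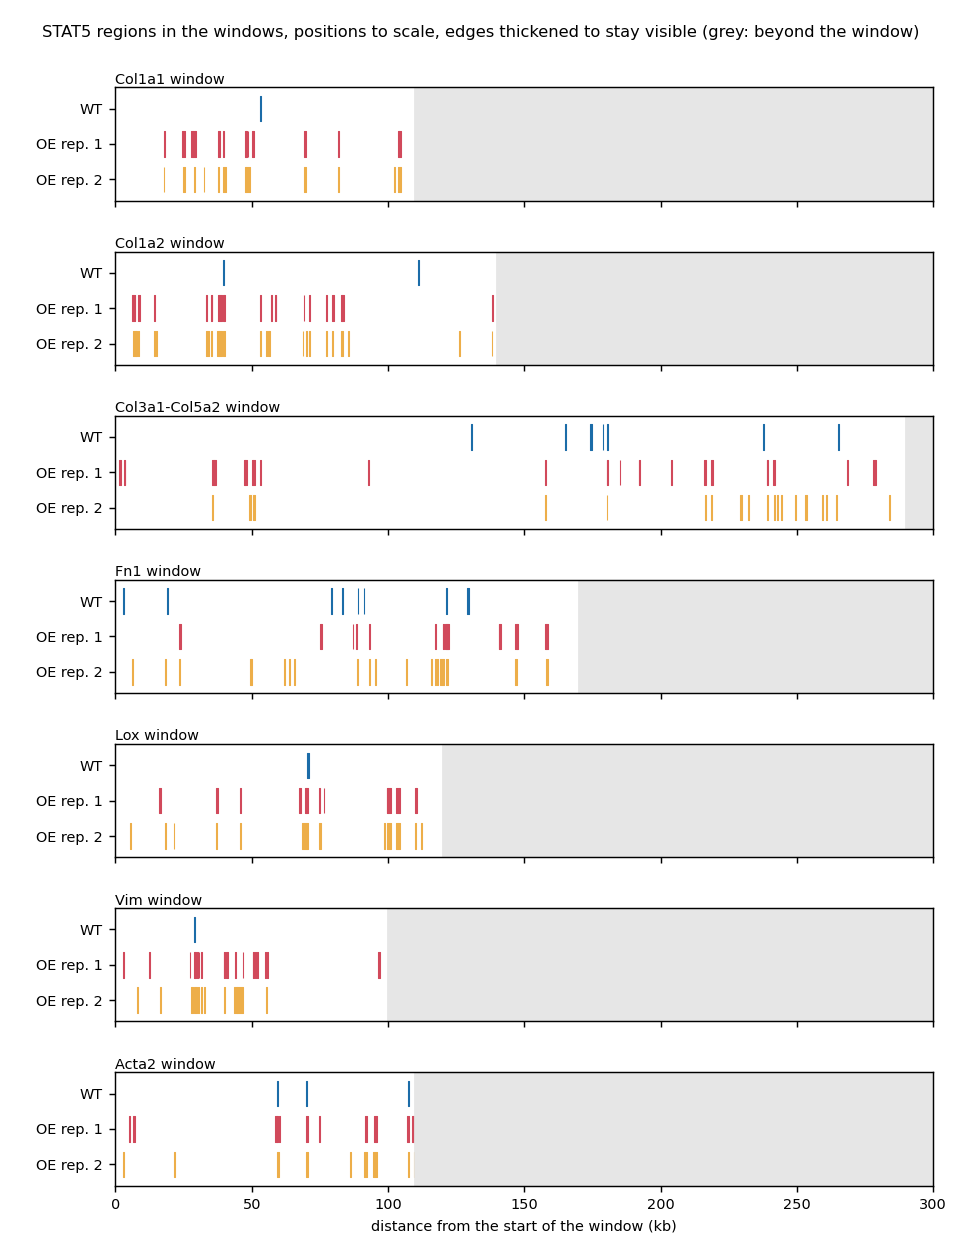
Position of each STAT5 region along the 7 windows, in kb from the start of the window, for wild type (WT) and both overexpression (OE) libraries, 1 row of bars per library. Wild type shows 1 bar in each of the Col1a1, Lox and Vim windows and 8 in the Fn1 window, and the overexpression rows hold 9 to 27 regions per window, of which close neighbours are drawn as one bar.

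Measured per 100 kb, the windows were denser than the genome at large in each list. Wild type had 2.21 regions per 100 kb over the windows and 0.503 over chromosomes 1 to 19 and X, a ratio of 4.39. The ratio was 4.68 in replicate 1 (12.7 against 2.71 per 100 kb) and 3.68 in replicate 2 (10.0 against 2.72 per 100 kb). The comparison is with whole chromosomes, cut into 26370 tiles of 100 kb, of which 66.2% held no wild-type region and 40.2 and 38.0% held none in replicates 1 and 2. Windows drawn around genes leave out such empty stretches, and how much of the ratio that accounts for was not tested. The members were also proposed with results of these lists known.

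The windows were then ordered by density within each genotype. Fn1 came first in wild type with 4.71 regions per 100 kb (95% exact Poisson interval 2.03 to 9.27, counting error only), and 0.436% of tiles were as dense, or 0.0607% with tiles of 200 kb. Acta2 followed with 2.73 and Col3a1-Col5a2 with 2.41, a density that 3.58% of tiles reached for each of them. Col1a2 had 1.43, which 11.0% of tiles reached. Vim had 1.00, Col1a1 0.909 and Lox 0.833, and 33.8% of tiles reached each of these. A tile holds a whole number of regions, so windows of nearby density can get the same share. With tiles of 200 kb the shares were 1.26% for Acta2, 2.69% for Col3a1-Col5a2 and 12.1% for Col1a2. For Vim, Col1a1 and Lox they were 25.6% each. The interval of Lox ran from 0.0211 to 4.64. All these wild-type intervals overlap, so the order of the windows within wild type is not resolved by the counts. In the overexpressing cells Col1a2 had the highest mean density, 15.7 per 100 kb in both libraries, and Vim the next, with 20.0 in replicate 1 and 11.0 in replicate 2. Col1a1 had 14.5 and 10.9, Lox 12.5 and 10.0, Fn1 11.2 in both, Acta2 11.8 and 8.18, and Col3a1-Col5a2 9.31 and 6.55. Neighbours in this order mostly lay within each other's spread between replicates. Col1a2 lay above Col1a1, Lox, Fn1, Acta2 and Col3a1-Col5a2 in both libraries, and Col3a1-Col5a2 was last in both. With the 13278 broadest regions of each list this order did not hold: Acta2 was densest in replicate 1 (6.36 per 100 kb, Col1a2 4.29) and Col1a1 in replicate 2 (5.45, Col1a2 5.00), while in replicate 1 Vim (1.00) and Fn1 (1.18) lay below Col3a1-Col5a2 (2.07). In the full lists, the tiles as dense as a window ran from 0.277% (Vim) to 5.93% (Col3a1-Col5a2) in replicate 1. For replicate 2 they ran from 0.576% (Col1a2) to 13.7% (Col3a1-Col5a2).

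**Figure D2:**
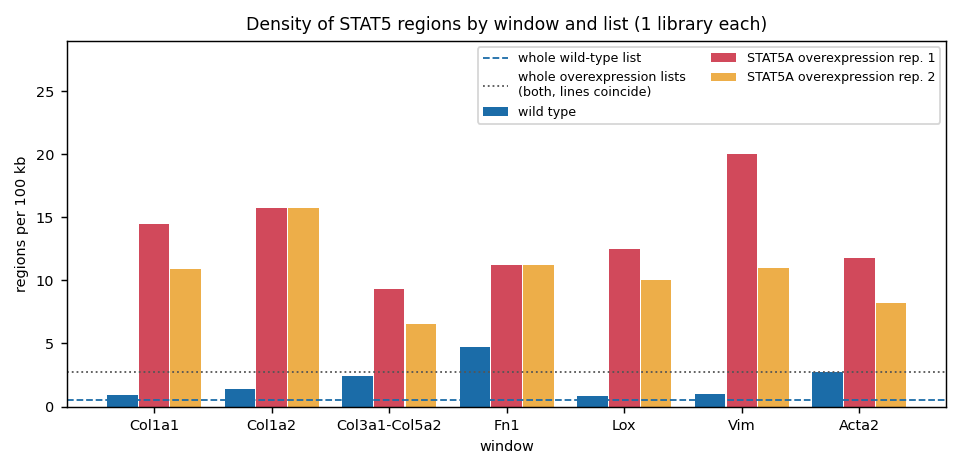
Density of STAT5 regions (regions per 100 kb) in each window, bars grouped by window and coloured by library, with dashed and dotted lines at the density of the whole lists (0.503 per 100 kb in wild type, 2.71 and 2.72 in the overexpression lists). Fn1 has the tallest wild-type bar, 4.71, while the overexpression bars are tallest at Vim in replicate 1 (20.0) and at Col1a2 in replicate 2 (15.7).

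The overexpression lists also divided bound stretches differently. In replicate 1, 32 of 125 gaps between neighbouring regions of the windows were 12 bp or less, and in replicate 2 none of 97 was. Over the whole lists such gaps numbered 12896 of 71541 and 86 of 71776. When neighbours no more than 100 bp apart were joined, a setting added after the lists were seen, replicate 1 had 95 regions in the windows, replicate 2 had 102 and wild type still 23. The order of the replicates was thus reversed, and the ratio to wild type became 4.28. Joined in the same way, the whole lists held 57162 regions in replicate 1 and 70796 in replicate 2, and their ratio was 4.94. The length covered, which such division hardly changes, was 57366 bp in replicate 1 and 58014 bp in replicate 2, against 8439 bp in wild type. These are 5.52, 5.58 and 0.811% of the windows, with mean region widths of 435, 558 and 367 bp. Covered length was 6.80 and 6.87 times wild type, compared with 5.77 and 5.93 times for the whole lists.

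As deposited, the members had median widths close to those of their lists in wild type and replicate 1. The 23 wild-type regions had a median of 348 bp and ranged from 208 to 748 bp, beside 379 bp for the whole list. Replicate 1 had a median of 399 bp over the windows and 398 bp over the whole list. Replicate 2 had 443 bp over the windows and 378 bp over the whole list, with 62.5% of the members wider than that list's median. Joining neighbours no more than 100 bp apart gave 558 bp against 478 bp for the whole list in replicate 1. In replicate 2 it gave 443 against 380 bp, and in wild type 348 against 398 bp. The joined members of both overexpression libraries thus had larger medians than their lists. Regions of 1000 bp or more made up 9.62% of the replicate 2 members (10 of 104), against 2.86% of the list. In replicate 1 they made up 2.27% (3 of 132) against 0.648%, and wild type had none among its members and 1 in its list. The widest region of replicate 1 was 1338 bp at Col1a1, 1118 bp at Col1a2, 709 bp at Col3a1-Col5a2, 799 bp at Fn1, 1159 bp at Lox, 638 bp at Vim and 949 bp at Acta2. In replicate 2 it was 1209, 1092, 821, 1580, 1976, 2199 and 1109 bp in the same order of windows. As deposited, the Fn1, Lox and Vim windows thus differed most between the replicates. The division of replicate 1 bears on these widths. In the Col3a1-Col5a2 window its regions of 679, 299 and 669 bp, from 45355343 to 45357011, are parted by gaps of 12 bp or less. The widest regions and those of 1000 bp or more were not counted again after joining. No list gives a height, so a broad region cannot be read as a strong one.

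By window, the Acta2 regions of replicate 1 had the largest median, 599 bp, and 12 of 13 exceeded the median of the list. Fn1 and Vim had the smallest medians in that replicate, 299 and 313.5 bp. In replicate 2 the medians were largest at Lox (540 bp) and Col1a1 (530.5 bp) and smallest at Vim (370 bp) and Col3a1-Col5a2 (375 bp). Joining neighbours no more than 100 bp apart changed this order in replicate 1. Col1a1 then had the largest median, 698 bp, with 658 bp at Acta2, and Fn1 had 574 bp, above the 558 bp of all members. After joining, Vim had the smallest median in both replicates, 343 bp in replicate 1 and 356 bp in replicate 2. In wild type the 3 Acta2 regions were narrow, at 278 to 308 bp, and the single Lox region was 518 bp wide.

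**Figure D3:**
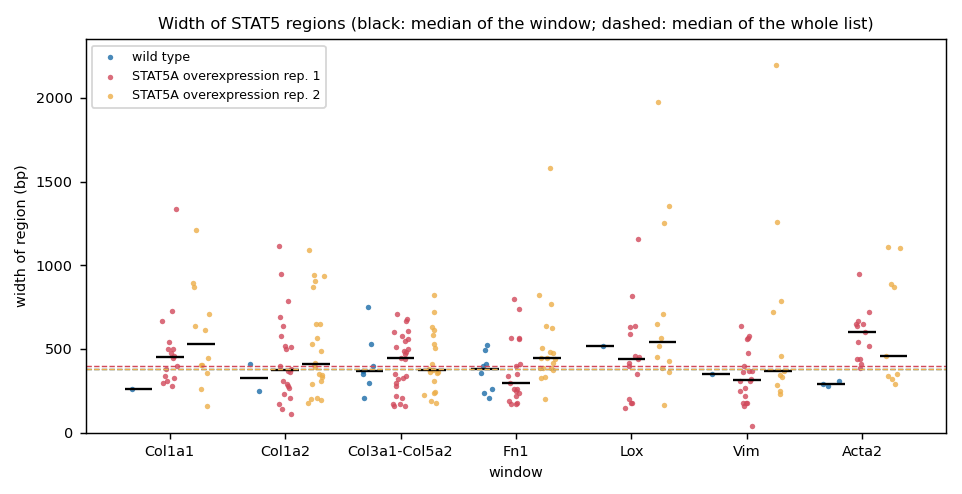
Width in bp of every STAT5 region in the windows, 1 point per region, with a black line at the median of each window and library and dashed lines at the medians of the whole lists (379, 398 and 378 bp). The 3 highest points are all from overexpression replicate 2, in the Fn1, Lox and Vim windows (1580, 1976 and 2199 bp).

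Agreement between lists was then compared with that of the lists as a whole. Of the 23 wild-type regions, 8 shared at least 1 bp with replicate 1 (34.8%, 95% exact binomial interval 16.4 to 57.3%), where 32.3% of the whole wild-type list did. Replicate 2 overlapped 9 (39.1%), against 29.9% of the list. Both replicates overlapped 8 of 23 (34.8%), against 23.3%, and at least 1 replicate overlapped 9 of 23 (39.1%, interval 19.7 to 61.5%), against 38.9%. The intervals of the members hold the share of the whole list in each case. Wild-type regions around these genes were thus found again in the overexpressing cells about as often as elsewhere, as far as 23 regions can show, although the windows are rich in overexpression regions.

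The overexpression replicates were compared with each other in the same way. Of the 132 replicate 1 regions, 78 (59.1%, interval 50.2 to 67.6%) overlapped replicate 2, against 51.9% of the list, which lies inside the interval. Of the 104 replicate 2 regions, 58 (55.8%, interval 45.7 to 65.5%) overlapped replicate 1, against 43.1%, which lies below it. With the 13278 broadest regions of each list 38.9% (14 of 36, interval 23.1 to 56.5%) stood against 39.7%. In the wider part of each list 52.3% (interval 39.5 to 64.9%) stood against 46.3%. Both intervals hold the share of the whole list but are too wide to show that the difference was gone. When 50% of both regions had to overlap, 43.3% (interval 33.6 to 53.3%) stood against 32.6%. Centres within 200 bp gave 48.1% (38.2 to 58.1%) against 37.7%, and joined neighbours gave 56.9% (46.7 to 66.6%) against 43.1%. In each of these last settings the whole list stayed below the interval, so whether the difference is resolved depends on the setting. For replicate 1 regions the share was 34.1% against 32.7% when 50% of both regions had to overlap. Regions close together share their surroundings, so the intervals understate the uncertainty. Few overexpression regions lay on a wild-type region: 10 of 132 in replicate 1 (7.58%, interval 3.69 to 13.5%, against 6.55% of the list) and 9 of 104 in replicate 2 (8.65%, interval 4.03 to 15.8%, against 5.25%).

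**Figure D4:**
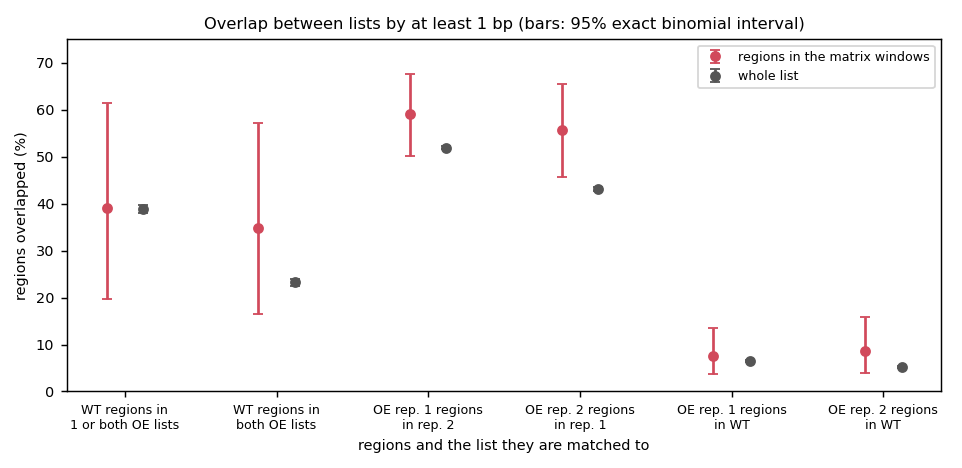
Share of regions (percent) that overlap another list by at least 1 bp, for the regions in the 7 windows and for the whole list, with 95% exact binomial intervals. The members' intervals hold the value of the whole list except for replicate 2 regions in replicate 1, 55.8% against 43.1%.

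Merged across lists, the windows held 172 distinct sites. All 3 lists held 8 of them, both overexpression replicates but not wild type held 50, and wild type and replicate 2 held 1. The sites of a single list numbered 54 for replicate 1, 45 for replicate 2 and 14 for wild type. Of 113354 sites over the whole series, all 3 lists held 2984. Both overexpression replicates but not wild type held 27342 of those, and wild type and replicate 2 held 784. Single-list sites of the whole series numbered 33024 for replicate 1, 40016 for replicate 2 and 8107 for wild type. Sites in both replicates made up 36.7% of the 158 sites with an overexpression region (interval 29.2 to 44.7%), against 28.8% over the whole series. This share was 66.7% at Col1a1 (10 of 15 sites) and 53.8% at Col1a2 (14 of 26), but 22.2% at Col3a1-Col5a2 (8 of 36) and 25.0% at Fn1 (7 of 28). Acta2 had 42.9%, Lox 41.2% and Vim 27.3%. The intervals were wide, at 10.1 to 39.2% for Col3a1-Col5a2, 10.7 to 44.9% for Fn1 and 10.7 to 50.2% for Vim. These hold the 28.8% of the whole series, as do those of Acta2 (17.7 to 71.1%) and Lox (18.4 to 67.1%). Those of Col1a1 (38.4 to 88.2%) and Col1a2 (33.4 to 73.4%) lie above it. The intervals of all windows overlap each other, so their order is not resolved by these counts.

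Overlap of the wild-type regions was also read by window. In the Col3a1-Col5a2 and Fn1 windows 3 of 15 wild-type regions were overlapped in the overexpressing cells, and in the other windows 6 of 8 were. This split was drawn after the values were seen and is a description only. Over the whole wild-type list the share was 38.9%. The interval of each single window holds that value, for example 0.361 to 57.9% at Col3a1-Col5a2, 3.19 to 65.1% at Fn1 and 29.2 to 100% at Acta2. The 14 wild-type regions overlapped in neither replicate lay at a median of 3196 bp from the nearest overexpression region, with a range of 171 to 26752 bp. Of these, 9 (64.3%) lay within 5 kb of one, against 37.7% of the 8107 such regions of the whole list, and overexpression regions are also denser in these windows. The median width of the 14 regions was 383 bp (range 239 to 748 bp), and that of the 9 overlapped regions was 308 bp (range 208 to 518 bp). So few regions with overlapping ranges do not resolve which set is wider. In the whole list the overlapped regions had the larger median, 388 against 378 bp.

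Type I collagen, the main fibre of skin, bone and tendon, is built from the products of Col1a1 and Col1a2. The Col1a1 window (94.75 to 94.86 Mb on chromosome 11) held 1 wild-type region, at 94803073 to 94803331, 259 bp wide. Neither overexpression list overlapped it: the nearest replicate 1 region ended 2232 bp before it and the nearest replicate 2 region 3851 bp before. Replicate 1 had 16 regions and replicate 2 had 12, and 13 of the 16 and 10 of the 12 overlapped the other replicate. The widest replicate 1 region of all 7 windows was here, at 94774253 to 94775590. It was 1338 bp wide, the 16th widest of its list, and lay over a replicate 2 region of 711 bp. The closest group of regions, 5 of replicate 1 and 2 of replicate 2 within 3448 bp, ran from 94797393 to 94800840 and stopped short of the wild-type region.

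The Col1a2 window (4.40 to 4.54 Mb on chromosome 6) had 22 regions in each overexpression library and 2 in wild type. Wild type and both replicates met at 4439393 to 4440358, where a wild-type region of 408 bp lay within a replicate 1 region of 509 bp and overlapped a replicate 2 region of 942 bp. The wild-type summit was 60 bp from the nearest replicate 1 summit. That site closed a dense stretch from 4435022 with 5 replicate 1 and 3 replicate 2 regions within 4880 bp. The second wild-type region, at 4510993 to 4511240 (248 bp), stood alone in a stretch of 40.6 kb, from 4485554 to 4526177, that held no region of either overexpression library. Its nearest overexpression region was 14937 bp away. Before that stretch lay 21 of the 22 replicate 1 regions, 20 of the 22 replicate 2 regions and 1 of the 2 wild-type regions.

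Type III collagen, the product of Col3a1, and type V collagen, to which Col5a2 contributes a chain, accompany type I collagen in soft connective tissue. Their genes are neighbours and share the window from 45.32 to 45.61 Mb on chromosome 1. It is the longest window, with 7 wild-type, 27 replicate 1 and 19 replicate 2 regions, or 3.86 and 2.71 times the wild-type number. Wild type had no region in the first 130 kb, where replicate 1 had 12 and replicate 2 had 3, and its regions began at 45450303. That first one, of 528 bp, was 26752 bp from any overexpression region. A region of 748 bp at 45494273 to 45495020 was the widest wild-type member of all windows and the 61st widest of its list by width, yet the nearest overexpression region lay 5142 bp away. The only site of all 3 lists here ran from 45500163 to 45500660. Its wild-type region was 209 bp wide, its replicate 2 region 241 bp, and replicate 1 had 2 regions there of 487 bp together, with a summit 15 bp from that of wild type.

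Of the other wild-type regions in the Col3a1-Col5a2 window, 3 lay within 2 kb of an overexpression region without touching it. The region at 45557703 to 45558101 was 828 bp from replicate 2 and 831 bp from replicate 1. The region at 45585183 to 45585530 was 533 bp from a replicate 2 region, and the region at 45498713 to 45499010 was 1152 bp from a replicate 1 region. The region at 45484993 to 45485360 was farther off, 6862 bp from replicate 1. The closest group of overexpression regions, 4 of replicate 1 and 2 of replicate 2, lay at 45367233 to 45371235 with no wild-type region. Replicate 2 had no region between 45371236 and 45477659, a stretch of 106 kb that wholly held 2 replicate 1 regions. Replicate 1 had none between 45561961 and 45588332, where replicate 2 had 7 within 26.4 kb, so each replicate had stretches that the other lacked.

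Fibronectin, encoded by Fn1, is the adhesive glycoprotein on which cells assemble other matrix fibres. Its window (71.58 to 71.75 Mb on chromosome 1) held 8 wild-type regions and 19 in each overexpression library, 2.38 times the wild-type number, the lowest ratio of the 7 windows in both libraries. One wild-type region was overlapped in both replicates. It lay at 71701383 to 71701740, was 358 bp wide, and had its summit 60 bp from a replicate 1 summit, inside a replicate 2 region of 766 bp. Replicate 2 alone overlapped the region at 71668943 to 71669150 (208 bp), which was 472 bp from replicate 1. The other 6 were overlapped by neither list and ranged from 171 to 6787 bp in distance to the nearest overexpression region. Of those 6, the regions at 71598853 to 71599345 and 71709138 to 71709660 are the only wild-type members whose edges do not lie on the 10 bp grid that 21 of the 23 share, as do 11565 of 13278 regions of the list. For another, at 71582693 to 71583090, the deposited summit lies 3 bp from its start.

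The Fn1 overexpression regions gathered at 71697141 to 71702091. There replicate 1 had 6 regions and replicate 2 had 4 within 4951 bp, and the wild-type region shared by all lists lay at the end of that stretch. A replicate 2 region of 1580 bp was the widest of the group, while replicate 1 had 2 regions of 568 bp together at its end. Replicate 1 had no region between 71604032 and 71655222, a stretch of 51.2 kb. Replicate 2 had 5 regions there, from 71629235 to 71645723, so the libraries differed over that stretch.

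Lysyl oxidase, encoded by Lox, is the secreted enzyme that starts the crosslinking of collagen and elastin fibres. Its window (52.62 to 52.74 Mb on chromosome 18) held 1 wild-type, 15 replicate 1 and 12 replicate 2 regions. The wild-type region, at 52690323 to 52690840, was overlapped in both replicates, in each case over its first stretch and not its end. The replicate 2 region there was 1976 bp wide, the 39th widest of its list, and the nearest replicate 1 summit was 265 bp from that of wild type. Of the 12 replicate 2 regions, 3 were 1000 bp wide or more, the most of any window. The closest group lay elsewhere, at 52719483 to 52724370, with 5 replicate 1 regions covering 2765 bp, 2 replicate 2 regions covering 2608 bp and no wild-type region.

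Vimentin, encoded by Vim, is the intermediate filament protein of mesenchymal cells. Its window (13.45 to 13.55 Mb on chromosome 2) is the shortest and held 1 wild-type region, 20 in replicate 1 and 11 in replicate 2, or 16 and 10 after joining neighbours. Wild type and both replicates met at 13478771 to 13480171. The wild-type region was 348 bp wide with its summit 55 bp from a replicate 1 summit. Replicate 2 had 1 region of 1256 bp at the site, which replicate 1 divided into 3 regions of 1316 bp together. Around it, from 13477173 to 13481860, lay 6 replicate 1 and 4 replicate 2 regions, and that number was matched by the Fn1 group and exceeded by no other window. The widest region of all members was at 13494519 to 13496717. It was 2199 bp wide, the 20th widest of the replicate 2 list, and no replicate 1 region overlapped it, although neighbours of replicate 1 lay 227 bp before and 55 bp after it. Of the 20 replicate 2 regions at least as wide, 18 overlapped replicate 1.

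Smooth muscle actin, encoded by Acta2, forms the contractile fibres of myofibroblasts. Its window (34.27 to 34.38 Mb on chromosome 19) held 3 wild-type, 13 replicate 1 and 9 replicate 2 regions. All 3 wild-type regions were overlapped in both replicates, and no other window with more than 1 wild-type region showed this. They lay at 34329353 to 34329641, 34339923 to 34340230 and 34377473 to 34377750, with widths of 289, 308 and 278 bp. Regions over them were broader, 539, 949 and 648 bp in replicate 1 and 868, 888 and 337 bp in replicate 2. Their summits were 70, 420 and 135 bp from the nearest replicate 1 summit. Overexpression regions also clustered at 34361149 to 34366060, with 3 in replicate 1, 2 in replicate 2 and none in wild type.

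Regions within a window were not assigned to one gene or to its promoter or introns, because the gene table at hand is of another build (GRCm38) and no gene positions on mm9 were used. That table lists, next to the members in gene order, Gm11544 and Sgca for Col1a1, Bet1 and Casd1 for Col1a2, Gulp1 and Wdr75 around the Col3a1-Col5a2 pair, Atic and Mreg for Fn1, Srfbp1 and Zfp474 for Lox, Trdmt1 and St8sia6 for Vim, and Stambpl1 and Fas for Acta2. Regions in a window may therefore lie nearer to a neighbour than to the named gene. RefSeq promoters of that build, 300 bases long, were matched for 4 of the 8 members (Acta2, Col1a2, Col3a1 and Vim). None of these 4 held TTCNNNGAA, a palindrome and thus the same on both strands, and 8.30% of 32851 promoters did. No match says only that these letters are not in those promoter windows. The regions come from bulk cultures, so binding in fewer cells and weaker binding in all cells cannot be told apart.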

How the data were processed

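The deposited files are 3 lists of STAT5 regions on build mm9, per the file names and labels, holding positions in bp and no height, score or p-value. The replicate 2 regions carry MACS identifiers in the deposited file. For the wild-type and replicate 1 lists the program, and for every list the version, control and cutoff, is not given in the sources used here, and lists called differently differ in number, width and edges for reasons other than binding. Depth is unknown.

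Starts were read as BED positions and are printed counted from 1. Overlap meant at least 1 bp. Densities used the length up to the last region of each of chromosomes 1 to 19 and X, and tiles of 100 kb. Intervals are 95% exact binomial or Poisson. The closest group is the 5 kb with the most overexpression regions. The rule for named regions took every wild-type region, every site of all lists, and each window's widest regions and closest group. Interval functions were tested on simulated data, and overlap counts equalled those of bedtools 2.31.1. Python 3.11.15, pandas 2.3.3 and scipy 1.17.1 were used. Members, windows and tests were chosen with earlier results of these data known. The planned search for STAT motifs in regions needs the mm9 sequence and was not run.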

Additional observations from a re-analysis of the deposited data

How the results depend on the processing

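Of 86 alternative values of the summary results, 65 stayed within the count limit of 1.5 times, the interval or the spread between replicates, and 21 moved. For the overexpression ratio, density, width and overlap with wild type the limit was the SD of the 2 replicates. Either replicate alone always lies within that limit. Leaving a replicate out could therefore not move these values, and that they stayed shows nothing. Keeping the wider part of each list gave 9 wild-type regions and a mean of 67.5 overexpression regions, a ratio of 7.50 (whole lists 5.45), widths of 493 and 592 bp (wild type, overexpression mean) and 2.97% of overexpression regions on wild type (8.11% as reported), where the whole lists had 4.82 and 4.47%. With only the 13278 broadest regions of each overexpression list, the mean number was 33, the ratio 1.43 (whole lists 1.00), the density 6.30 times that of the whole list (4.18 as reported), and the share of wild-type regions in both replicates 4.35% (whole list 7.90%). Overlap between replicates was then 46.7 and 38.9% (whole lists 40.8 and 39.7%), and overlap with wild type 11.7% (6.67 and 16.7% by replicate, whole lists 13.1 and 13.8%). Asking for 50% of each region to be shared gave 4.35% of wild-type regions in both replicates (whole list 8.98%), 34.1 and 43.3% between replicates (32.7 and 32.6%) and 2.86% on wild type (3.64 and 2.73%). Centres within 200 bp gave 40.2% of replicate 1 regions in replicate 2 (whole list 39.1%) and 4.57% on wild type (5.11 and 3.96%). Wild-type regions in both replicates thus went from above the whole list to below it under 50% overlap and with equal list lengths. The whole list lay inside the members' interval before (16.4 to 57.3%) and after (0.110 to 21.9% in each setting), so this change of side is not resolved. Replicate 2 regions in replicate 1 went below the whole list with equal list lengths, with an interval of 23.1 to 56.5% that holds it. Windows extended by 50 kb gave an overexpression density of 3.43 times the whole list, and joined neighbours a median width of 500 bp. Without replicate 1 or replicate 2 the number was 104 to 132, the ratio 4.52 to 5.74, the density 3.68 to 4.68, the width 399 to 443 bp, the share of wild-type regions overlapped 34.8 to 39.1% and the overlap with wild type 7.58 to 8.65%. Shorter lists lower the numbers of regions by construction, and asking for 50% overlap lowers the shares. The ratio rose in the wider part of each list, and the density and the overlap with wild type rose with equal list lengths. The cause of these changes was not tested. For single windows, 57 of 126 values moved. Among these were all 21 tile shares with tiles of 200 kb, 15 of 21 numbers in the wider part, 14 of 14 with equal list lengths, 6 of 21 with extended windows and 1 of 21 after joining. Joining and the 10 bp grid were chosen after seeing the data. No paired analysis was possible because wild type has 1 library and shares only 1 replicate number with overexpression. Depth is unknown, so its effect on region number was not tested.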
